A study of Homo sapiens with 42 samples.

Results

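RRM1, RRM2, TYMS, TK1, DTYMK and DUT encode enzymes that make deoxynucleotides, and their transcript levels were followed in A375 cells, a human melanoma line, on 42 Affymetrix arrays. These 6 genes were chosen by name out of 19775 genes measured, each by its single-symbol probe set with the highest mean log2 signal over all arrays. Cells were transfected for 48 h with GL2, p53, CDT1 or BRCA1 siRNA and then exposed for 26 h to 650 nM MLN4924, to 5 uM Nutlin, to 100 nM daunorubicin or to 0.065% DMSO as the vehicle. GL2 and p53 siRNA were combined with all 4 agents, and their DMSO control was run in 2 sets, a first and a second. CDT1 and BRCA1 siRNA were combined with DMSO and MLN4924 only, which gives 14 groups of 3 arrays, each from a treatment of 27000 cells. All groups share the transfection step and the single cell line, and none was left untransfected. The labels do not say whether the 3 arrays of a group came from separate cultures, so p-values rest on a spread that may be technical.

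GL2 siRNA is in common use as a control directed at firefly luciferase. MLN4924 blocks the NEDD8-activating enzyme and with it the cullin-RING ubiquitin ligases. Nutlin releases p53 from MDM2, and daunorubicin, an anthracycline, traps topoisomerase II on DNA. CDT1 licenses replication origins and is a substrate of cullin-RING ligases, and BRCA1 acts in repair by homologous recombination.

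Ribonucleotide reductase turns ribonucleoside diphosphates into their deoxy forms. RRM1 is its large, catalytic and regulatory subunit, RRM2 is the small subunit made in S phase, and RRM2B is an alternative small subunit whose gene is a p53 target. Thymidylate reaches DNA by a de novo route, in which DUT removes dUTP and supplies dUMP and TYMS methylates dUMP to dTMP, and by a salvage route, in which TK1 phosphorylates thymidine. DTYMK joins both routes by phosphorylating dTMP. Cell cycle genes of this kind are bound at their promoters by E2F proteins and by the DREAM and MuvB complexes, which use E2F-type sites and cell cycle homology region (CHR) elements, often beside CCAAT boxes bound by NF-Y.

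The members have promoter windows in RefSeq on GRCh38.p14, and sequence from 1 window of 250 bases upstream of an annotated start is printed for each gene, the window with most matches, because the members moved together in the comparisons that follow. The windows of RRM1, TYMS and DTYMK lie before the gene's first start and are given whole. Those of RRM2, TK1 and DUT lie before a later start, within the gene's span, and only short stretches round the matches are given. Letters in capitals mark matches on either strand to E2F-type sites (TTTGGCGC, TTTCCCGC, TTTGCCGC or TTTCGCGC), CHR-type elements (TTTGAA or TTCGAA) and CCAAT boxes (CCAAT). Sequences read 5′ to 3′ on the strand of the gene.
RRM1, chr11:4094435-4094684, plus strand: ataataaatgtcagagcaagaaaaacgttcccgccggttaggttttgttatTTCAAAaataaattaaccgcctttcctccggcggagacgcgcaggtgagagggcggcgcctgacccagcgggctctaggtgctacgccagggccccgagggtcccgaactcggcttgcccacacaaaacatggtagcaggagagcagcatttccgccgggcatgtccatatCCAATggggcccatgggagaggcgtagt
RRM2, chr2:10122608-10122628, plus strand: aggcgcagCCAATgggaaggg
RRM2, chr2:10122638-10122658, plus strand: tggcacagCCAATgggaaggg
RRM2, chr2:10122665-10122685, plus strand: caccaaagCCAATgggaaggg
TYMS, chr18:657403-657652, plus strand: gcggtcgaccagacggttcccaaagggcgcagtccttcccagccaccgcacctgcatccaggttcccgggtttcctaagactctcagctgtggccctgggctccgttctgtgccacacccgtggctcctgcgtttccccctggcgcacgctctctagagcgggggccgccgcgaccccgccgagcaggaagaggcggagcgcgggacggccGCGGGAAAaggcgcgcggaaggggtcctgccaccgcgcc
TK1, chr17:78187117-78187137, minus strand: gggcgctgATTGGccccatgg
TK1, chr17:78187086-78187106, minus strand: ggctcgtgATTGGccagcacg
DTYMK, chr2:241686816-241687065, minus strand: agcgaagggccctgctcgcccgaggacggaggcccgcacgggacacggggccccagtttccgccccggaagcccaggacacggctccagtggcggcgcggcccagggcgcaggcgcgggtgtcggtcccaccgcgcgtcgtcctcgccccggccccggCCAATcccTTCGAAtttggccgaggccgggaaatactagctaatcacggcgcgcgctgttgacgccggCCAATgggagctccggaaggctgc
DUT, chr15:48331975-48331996, plus strand: agctccccTTCAAAgttggccc
DUT, chr15:48332060-48332081, plus strand: agaagggcTTCAAAcccaaaat
DUT, chr15:48332152-48332180, plus strand: ctgGCGGGAAAtttcggtTTTGGCGCgct

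The RRM2 window held 3 CCAAT boxes, each followed by the same letters, and 2.93% of 35116 promoter windows of that length held 3 or more. TK1 held 2 CCAAT boxes on the opposite strand, and DTYMK held 2 with a CHR-type element between them. TYMS held 1 E2F-type match and the DUT window 2, together with 2 CHR-type matches. RRM1 held 1 CCAAT box and 1 CHR-type match. Over all windows, 32% had a CCAAT box, 14.3% a CHR-type match and 2.79% an E2F-type match. RRM2, TK1 and DUT have more than 1 window (11 windows for the 6 genes), and the other windows of these genes held fewer matches. Each printed window was picked for its matches, so its count is not that of an average window. A match is a run of letters and was not measured as a binding site.

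Levels are given as log2 signal relative to the median gene of the same array, so 0 is the level of the median gene and 1 unit is a doubling. A gene was called changed where its change reached 1.5-fold and its p from limma, adjusted by Benjamini-Hochberg across the 19775 genes, was under 0.05. SOX10, a melanocyte lineage factor, had a mean signal of 1077, MITF 323 and S100B, a further melanocyte marker, 353. The pigment genes PMEL, MLANA, TYR and TYRP1 lay between 16.9 and 33.9 signal units, near or under the median of all values, 31.9. Of the markers of other cell types, 1 of 6 epithelial (KRT14, 104 units), 3 of 6 fibroblast (LUM 255, COL1A1 138 and DCN 79.7) and 1 of 4 leukocyte genes (LCP1, 45.7) lay above that median. The rest of these lists lay between 2.09 (KRT19) and 28.8 (KRT5), a range that takes in the level of PMEL, MLANA and TYRP1. The summed signal ran over the 14 groups from 118 to 308 for the epithelial, 365 to 899 for the fibroblast and 58.9 to 107 for the leukocyte list, and its part in the results was not tested.

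A pair of libraries went against their labels, and 1 more stood apart. In GL2 siRNA cells with MLN4924, BRCA1 itself read 1.90, 2.18 and -1.35 on the 3 arrays, and in BRCA1 siRNA cells with MLN4924 it read -1.13, -0.78 and 2.12, so the third library of each group goes against its label. CDT1 went the same way, at 2.80, 2.76 and 1.22 in the first of these groups and 1.21, 1.26 and 2.55 in the second. Replicate 1 of p53 siRNA with daunorubicin gave a 5′ to 3′ signal ratio of 0.0118 for ACTB, against 0.649 and 0.727 on the other arrays of its group. All 3 stayed in the fit, and so in the spread that all comparisons share. For the members, values without them are given beside the comparisons they enter and beside some others. In p53 siRNA cells under DMSO, CDKN1A, the p53 target that encodes p21, fell by 2.09 ± 0.12 (log2 change ± SE, adjusted p = 1.6e-13).

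**Figure D1:**
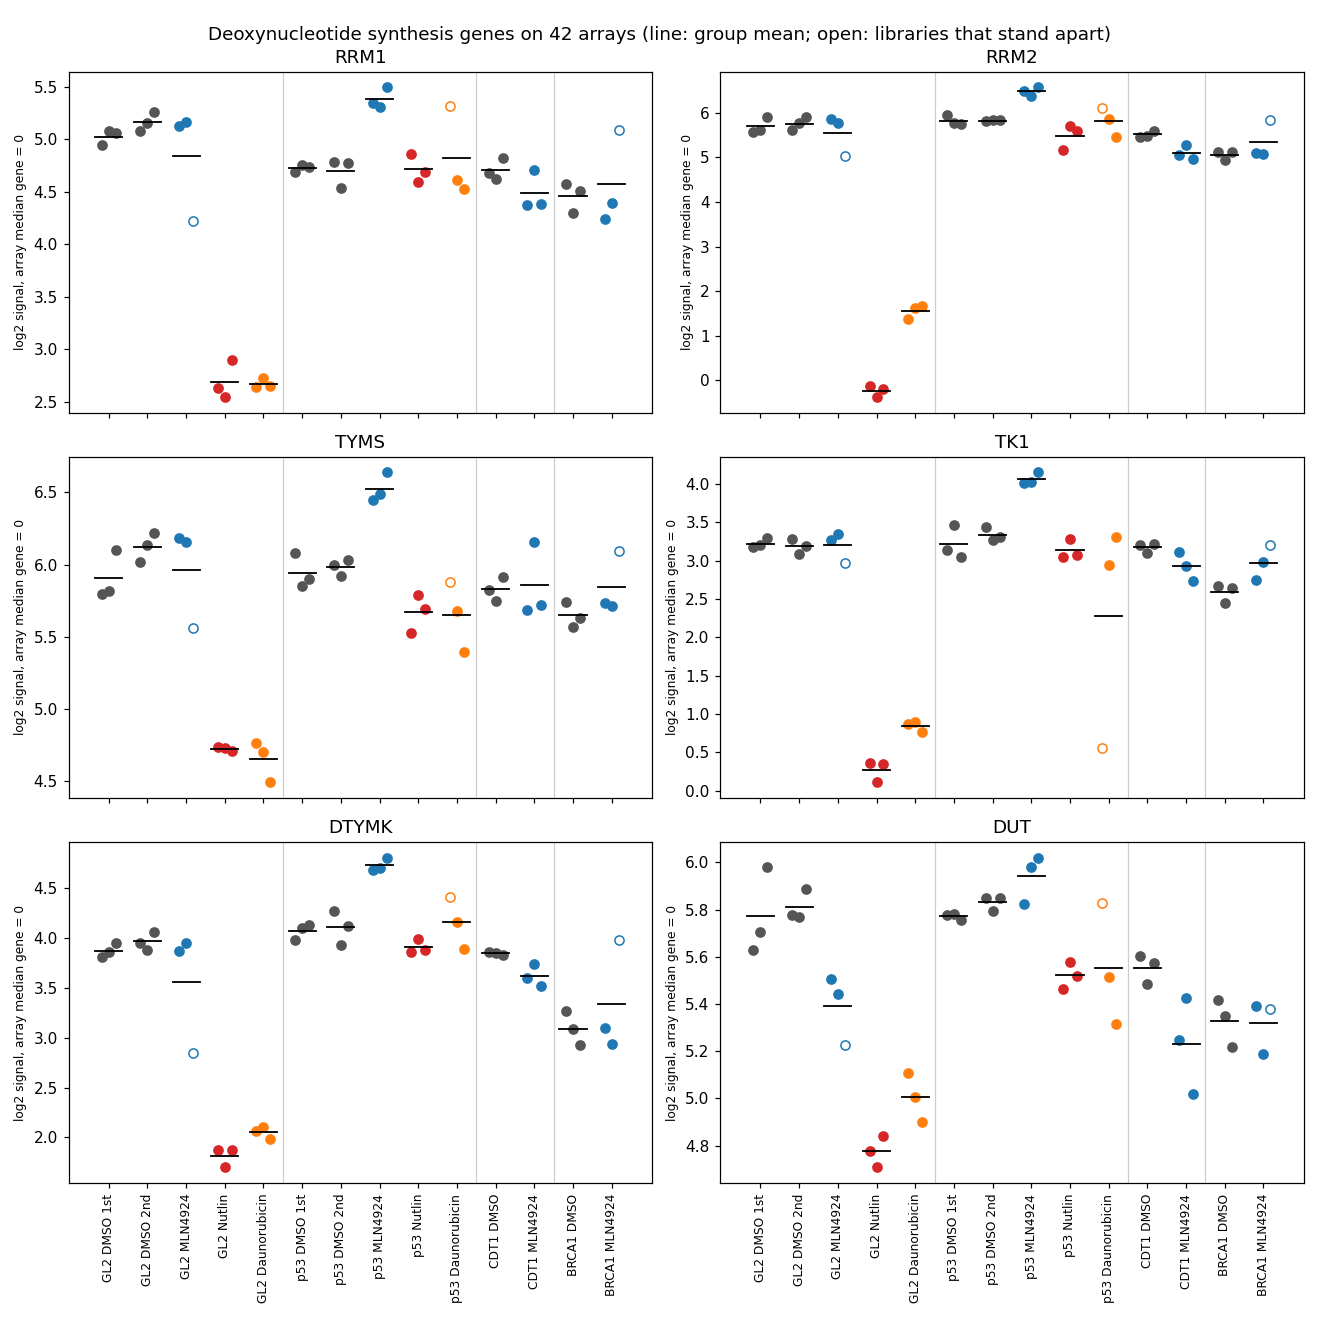
Log2 signal of the 6 genes on each of the 42 arrays, relative to the median gene of the array (y axis), in the 14 groups (x axis), with a line at each group mean and open points for the 3 libraries that stand apart. GL2 cells with Nutlin or daunorubicin have the 2 lowest group means in every panel, and p53 siRNA cells with MLN4924 have the highest mean in every panel.

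Nutlin lowered all 6 transcripts in GL2 siRNA cells, and RRM2 fell most, 61.6-fold. In this comparison 9.67% of all genes were called lower, and 6 of 6 members were. The median change of the members was -2.19 (log2), against 0.01 over all genes. With the arrays at their deposited scaling, 9.50% of all genes were called higher and 7.40% lower, against 6.71% and 9.67% after centring, and 6 of 6 members were called lower on both.

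RRM2 read 5.58, 5.62 and 5.92 on the arrays of the first DMSO set and -0.13, -0.39 and -0.20 with Nutlin. The deposited signal was 3284, 3326 and 4087 units under DMSO and 68.5, 57.8 and 62.7 with Nutlin, so the transcript went from far above the median gene to just under it. The groups did not overlap, and the log2 change was -5.94 ± 0.19 (limma, adjusted p = 2.07e-20). RRM1, its partner subunit, read 4.94, 5.07 and 5.06 under DMSO and 2.63, 2.54 and 2.90 with Nutlin. Its change was -2.33 ± 0.20 (limma, adjusted p = 1.16e-10), a 5.04-fold fall, with no overlap.

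The thymidylate genes fell as well. TK1, the salvage kinase, read 3.17, 3.20 and 3.30 under DMSO and 0.36, 0.11 and 0.35 with Nutlin. TYMS, of the de novo route, read 5.80, 5.81 and 6.10 under DMSO and 4.73, 4.73 and 4.71 with Nutlin. Neither gene's groups overlapped, and their changes were -2.95 ± 0.34 and -1.18 ± 0.15 (limma, adjusted p = 4.43e-08 and 2e-07). DTYMK, which follows both routes, fell from 3.81, 3.86 and 3.95 to 1.87, 1.70 and 1.88, a change of -2.06 ± 0.20. DUT, which guards against uracil in DNA, went from 5.63, 5.71 and 5.98 to 4.78, 4.71 and 4.84. Its fall of 2.00-fold was the smallest of the 6.

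Daunorubicin gave the same calls in GL2 siRNA cells: 6 of 6 members were lower, where 9.93% of all genes were called lower and 6.49% higher. At the deposited scaling these shares were 6.84% and 10.4%, with 6 members lower. RRM2 read 1.37, 1.61 and 1.66, a 17.9-fold fall (log2 change -4.16 ± 0.19, limma, adjusted p = 9.32e-17). RRM1 read 2.64, 2.72 and 2.65, and TK1 read 0.87, 0.89 and 0.77. These arrays lay below every DMSO array of the same gene, and the changes were -2.36 ± 0.20 for RRM1 and -2.38 ± 0.34 for TK1. DTYMK read 2.07, 2.10 and 1.99, TYMS 4.76, 4.70 and 4.49, and DUT 5.11, 5.01 and 4.90. Their changes were -1.82 ± 0.20, -1.25 ± 0.15 and -0.77 ± 0.11, again without overlap. Both drugs were compared with the same first DMSO set.

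Nutlin and daunorubicin were also compared directly in GL2 siRNA cells. RRM2 was 3.44-fold lower with Nutlin than with daunorubicin (difference -1.78 ± 0.19, limma, adjusted p = 3.69e-07) and was the 1 member called, where 1.22% of all genes were called lower and 1.08% higher (1.82% and 0.956% at the deposited scaling). The differences of the other 5 ran from -0.57 ± 0.34 for TK1 to 0.07 ± 0.15 for TYMS and did not pass the test. The TK1 arrays did not overlap, at 0.11 to 0.36 with Nutlin and 0.77 to 0.89 with daunorubicin. In the fit without the libraries that stand apart TK1 was at -0.57 ± 0.11 (limma, adjusted p = 0.00121), uncalled because it is under 1.5-fold. The DMSO set has no part in this comparison.

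**Figure D2:**
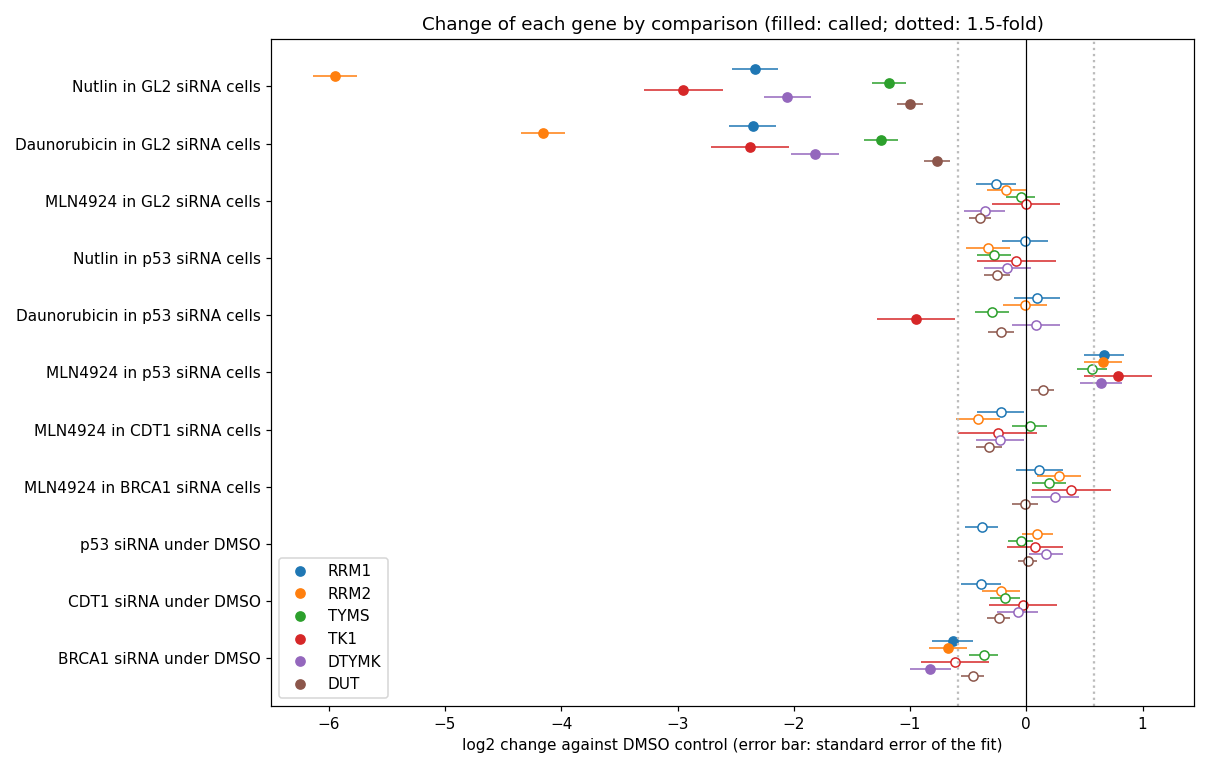
Log2 change against the DMSO control (x axis; points, with the standard error of the fit as bars) of the 6 genes in 8 drug and 3 siRNA comparisons (y axis), filled where called, with dotted lines at 1.5-fold. The 6 genes lie left of the dotted line with Nutlin and daunorubicin in GL2 cells, from -5.94 for RRM2 to -0.77 for DUT, and 4 lie right of it with MLN4924 in p53 siRNA cells.

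With p53 siRNA, 0 of the 6 were called with Nutlin by limma, where 0.0556% of all genes were called, 0.0405% higher and 0.0152% lower (0.0759% and 0.0101% at the deposited scaling). DUT was the 1 member with an unadjusted p under 0.05. RRM2 read 5.95, 5.76 and 5.76 under DMSO and 5.17, 5.72 and 5.59 with Nutlin, a change of -0.33 ± 0.19 whose 95% interval runs from -0.72 to 0.05, with the drug arrays below the DMSO arrays. RRM1 read 4.69, 4.75 and 4.74 under DMSO and 4.85, 4.60 and 4.69 with Nutlin, so its groups overlapped. The other 4 differed from DMSO by between -0.28 (TYMS) and -0.09 (TK1). The difference between both siRNAs was itself tested: the Nutlin change was higher in p53 than in GL2 siRNA cells by 5.61 ± 0.27 for RRM2 (limma, adjusted p = 1.41e-15). It was called for 6 of 6 members, where 5.30% of all genes were called higher, with DUT showing the smallest difference, 0.75 ± 0.16.

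Daunorubicin in p53 siRNA cells left 5 members uncalled, with differences from DMSO of -0.29 (TYMS) to 0.09 (RRM1). TK1 was called lower, at -0.95 ± 0.34 (limma, adjusted p = 0.0489), where 6.36% of all genes were called lower and 5.67% higher (4.97% and 7.41% at the deposited scaling, where TK1 was not called). Its arrays read 0.56, 2.95 and 3.31 against 3.14, 3.47 and 3.05 under DMSO. The low value is the library with the 5′ to 3′ ratio of 0.0118, and without that library the TK1 change was -0.09, the other 5 ran from -0.41 (TYMS) to -0.05 (DTYMK), with RRM1 at -0.16, and 0 members were called. The call was also lost without any 1 of the first set's DMSO arrays, at -1.03 to -0.83. The daunorubicin change was higher in p53 than in GL2 siRNA cells for 5 members, where 9.65% of all genes were called higher. RRM2 differed by 4.15 ± 0.27, RRM1 by 2.45 ± 0.28 and DTYMK by 1.90 ± 0.29, with RRM1 at 2.20 and DTYMK at 1.77 without the libraries that stand apart, where RRM2 was called as well. TK1 differed by 1.43 ± 0.48 (limma, adjusted p = 0.0372), and DUT, at 0.55 ± 0.16, stayed under 1.5-fold. Without the library of low 5′ to 3′ ratio the TK1 difference was 2.28 and was called. TK1's call was kept in that fit and in 1 more of the 12 that left out 1 array. CDKN1A rose with daunorubicin in p53 siRNA cells, by 2.74 ± 0.17 (limma, adjusted p = 1.7e-12). Its arrays read 3.82 to 3.99, against 0.89 to 1.52 under DMSO, so p53 siRNA did not abolish this rise. The part of CDKN1A in the members' changes was not tested.

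MLN4924 in GL2 siRNA cells left all 6 transcripts uncalled by limma, where 17.2% of all genes were called, 10.2% higher and 7.06% lower. Deposited scaling gave 5.69% higher and 10.9% lower, and again 0 members were called. Centring added 0.18 to every change here, and at the deposited scaling all 6 changes were below 0. They ran from -0.58 for DUT to -0.19 for TK1, with DTYMK at -0.54 and RRM1 at -0.44. Adjusted p by limma was 1.02e-07 for DUT, 0.00893 for DTYMK and 0.021 for RRM1, and each change was under 1.5-fold. After centring the changes ran from -0.40 for DUT to -0.005 for TK1, and DUT alone had an unadjusted p under 0.05. RRM2 read 5.87, 5.78 and 5.04 with MLN4924 and between 5.58 and 5.92 on the 6 DMSO arrays, and RRM1 read 5.12, 5.16 and 4.22 against 4.94 to 5.26. In both genes the first 2 arrays lay within the DMSO range and the third, the library that goes against its label, lay below it. DTYMK showed the same order at 3.88, 3.95 and 2.85. TK1 read 3.27, 3.35 and 2.97, and TYMS 6.18, 6.16 and 5.56. DUT was the member with the lowest adjusted p, 0.00197 by limma, with a change of -0.40 ± 0.10 that is under 1.5-fold, and its arrays (5.51, 5.44 and 5.23) lay below all 6 DMSO arrays. Without the libraries that stand apart the 6 changes ran from -0.32 (DUT) to 0.16 (TYMS).

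The same cells showed other p53 and proliferation transcripts moving. CDKN1A rose by 2.57 ± 0.15 with MLN4924 and MKI67, a proliferation marker, fell by 1.86 ± 0.18. The MKI67 arrays, with the library that goes against its label, read 0.78 to 1.78, against 3.09 to 3.47 under DMSO. Cell cycle genes as a list were mixed with MLN4924. Fitted without the libraries that stand apart, 5 were higher and 3 lower, with a median of 0.16, where 19.0% of all genes were called. With Nutlin, CDKN1A rose by 3.28 ± 0.17, MKI67 fell by 3.10 ± 0.21 and E2F1, a transcription factor for genes of S phase, by 1.88 ± 0.22. E2F1 was not called with MLN4924 (-0.19 ± 0.19). The part of these transcripts in the members' changes was not tested. The change with MLN4924 was higher than that with Nutlin for 6 of 6 members, where 17.0% of all genes were called higher and 8.69% lower, by 5.77 ± 0.21 for RRM2 and 0.60 ± 0.13 for DUT. At the deposited scaling, with 9.12% higher and 16.1% lower, 5 members were called and DUT, at 0.29, was not. The DUT call was lost in 4 of the fits that left out 1 library, at 0.54 to 0.57: without the first DMSO set's replicate 3, Nutlin replicate 2, and MLN4924 replicates 1 or 2. The change with MLN4924 was higher than that with daunorubicin for 5 members, where 18.2% of all genes were called higher and 9.03% lower (8.82% and 17.3% at the deposited scaling, with 5 members higher), and DUT differed by 0.37 ± 0.13. Without the libraries that stand apart, 6 and 5 members were again called in these comparisons, with RRM2 at 6.04 and 4.25. These 3 drug comparisons share DMSO arrays of the first set.

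In p53 siRNA cells MLN4924 raised 4 of the 6 transcripts, where 17.8% of all genes were called higher and 7.60% lower. RRM1, RRM2, TK1 and DTYMK rose, by 1.56 to 1.72-fold. TK1 read 4.01, 4.03 and 4.15 against 3.05 to 3.47 on the 6 DMSO arrays, a change of 0.78 ± 0.29 (limma, adjusted p = 0.0335). RRM2 read 6.49, 6.38 and 6.58 against 5.76 to 5.95, and RRM1 read 5.34, 5.30 and 5.49 against 4.54 to 4.78. DTYMK read 4.68, 4.70 and 4.81 against 3.93 to 4.27. These 4 genes did not overlap with DMSO, and RRM2, RRM1 and DTYMK changed by 0.66 ± 0.16, 0.67 ± 0.17 and 0.64 ± 0.18. TYMS also lay apart from DMSO, at 6.45, 6.49 and 6.64, but its change of 0.56 ± 0.13 was under 1.5-fold. DUT read 5.82, 5.98 and 6.02 and overlapped with DMSO.

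These increases depend on the scaling of the arrays. Centring on the median gene added 0.42 to every change in this comparison, and at the deposited scaling the 6 changes were 0.25 for RRM1, 0.24 for RRM2, 0.15 for TYMS, 0.37 for TK1, 0.22 for DTYMK and -0.28 for DUT, with 0 members called, 5.33% of all genes called higher and 17.4% lower. The median of all genes changed by 0.20 after centring. The TK1 call was lost in 6 of the 9 fits that left out 1 array, with changes of 0.74 to 0.81: without replicates 1 or 3 of the first DMSO set, replicate 2 of the second, or any 1 of the MLN4924 arrays. All 9 fits kept the daunorubicin library of low 5′ to 3′ ratio. After centring, the fit without the libraries that stand apart called TK1, at 0.78 ± 0.10 (limma, adjusted p = 1.16e-07).

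The MLN4924 change was higher in p53 than in GL2 siRNA cells for 4 members, where 6.96% of all genes were called higher and 3.41% lower (3.30% and 7.19% at the deposited scaling, with 3 members higher). The differences were 1.0 ± 0.25 for DTYMK, 0.93 ± 0.25 for RRM1, 0.83 ± 0.23 for RRM2 and 0.61 ± 0.18 for TYMS, and TK1 and DUT, at 0.79 ± 0.41 and 0.54 ± 0.14, were not called. Leaving out the GL2 library that goes against its label brought the count to 0, with DTYMK at 0.65, RRM1 at 0.62, RRM2 at 0.56 and TYMS at 0.41. Without p53 siRNA MLN4924 replicate 3 the count was 2. Without all 3 libraries that stand apart, 3 members were called: TK1, DTYMK and RRM1, at 0.68, 0.65 and 0.62. In p53 siRNA cells the MLN4924 change was also higher than the daunorubicin change for 3 members, where 19.1% of all genes were called higher and 7.80% lower: TK1 by 1.73 ± 0.38, TYMS by 0.86 ± 0.16 and RRM2 by 0.67 ± 0.21. At the deposited scaling, with 5.05% higher and 19.3% lower, TK1 alone was called. The count was 5 without the daunorubicin library of low 5′ to 3′ ratio, with TK1 at 0.88.

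MLN4924 gave 0 member calls by limma in CDT1 siRNA cells, where 10.6% of all genes were called, 5.93% higher and 4.63% lower (4.08% and 6.19% at the deposited scaling). It gave 0 in BRCA1 siRNA cells, where 16.9% were called, 9.79% higher and 7.15% lower (5.06% and 10.0% at the deposited scaling). At an unadjusted p under 0.05 there were 2 members in CDT1 siRNA cells, RRM2 and DUT, and 0 in BRCA1 siRNA cells. With CDT1 siRNA, RRM2 read 5.47, 5.49 and 5.59 under DMSO and 5.07, 5.28 and 4.97 with MLN4924. These arrays did not overlap, but the change of -0.41 ± 0.19 did not pass limma's test (adjusted p = 0.154). In the fit without the libraries that stand apart RRM2 was at -0.41 ± 0.13 and DUT at -0.32 ± 0.09. Their adjusted p by limma was then 0.0152 and 0.0116, and both changes were under 1.5-fold. With BRCA1 siRNA, RRM2 read 5.11, 4.94 and 5.11 under DMSO and 5.10, 5.08 and 5.84 with MLN4924, the last being the library that goes against its label. The other changes with MLN4924 in these cells ran from -0.32 (DUT, CDT1 siRNA) to 0.39 (TK1, BRCA1 siRNA). Without the libraries that stand apart, the changes in BRCA1 siRNA cells ran from -0.15 (RRM1, 0.11 with them) to 0.27 (TK1), with RRM2 at 0.04 in place of 0.28 and DTYMK at -0.07 in place of 0.25. The differences of the MLN4924 change from that in GL2 siRNA cells gave 0 member calls for CDT1 siRNA, where 1.22% of all genes were called, 0.521% higher and 0.698% lower (1.23% and 0.668% at the deposited scaling). They gave 0 for BRCA1 siRNA, where 1.86% were called. By limma's unadjusted p there were 0 and 2 members under 0.05, the latter DTYMK and DUT. The BRCA1 siRNA differences turn sign without the libraries that stand apart for DTYMK (0.61 to -0.07), RRM1 (0.37 to -0.19), RRM2 (0.45 to -0.06) and TYMS (0.25 to -0.08). The CDT1 siRNA differences, of which the GL2 library is a part, did so for RRM1 (0.04 to -0.27), DTYMK (0.13 to -0.22), TYMS (0.08 to -0.13) and DUT (0.08 to -0.01). In both, 0 members were called by limma without these libraries.

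Among the siRNAs under DMSO, BRCA1 siRNA lowered 3 members, where 4.37% of all genes were called lower. DTYMK read 3.27, 3.09 and 2.92 against 3.81 to 4.06 on the 6 GL2 arrays, a change of -0.83 ± 0.18 (limma, adjusted p = 0.00144). RRM2 read 5.11, 4.94 and 5.11 against 5.58 to 5.92, and RRM1 read 4.57, 4.30 and 4.51 against 4.94 to 5.26. Their changes were -0.68 ± 0.16 and -0.64 ± 0.17, and no BRCA1 siRNA array of these 3 genes reached the GL2 range. TK1 read 2.67, 2.45 and 2.64 against 3.08 to 3.30, also apart, with a change of -0.62 ± 0.29 that was not called (adjusted p = 0.177 by limma) and was called without the libraries that stand apart. The RRM1 call was lost without BRCA1 siRNA DMSO replicate 2, at -0.55. TYMS and DUT differed by -0.37 ± 0.13 and -0.46 ± 0.10, under 1.5-fold. E2F1 fell by 0.62 ± 0.19, MKI67 fell by 1.34 ± 0.18 and CDKN1A rose by 1.86 ± 0.15 in the same comparison, and their part in the result was not tested.

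The p53 and CDT1 siRNAs under DMSO gave 0 member calls, where 3.98% and 6.30% of all genes were called in either direction. For p53 siRNA the split was 1.71% higher and 2.27% lower, and 2.20% and 1.93% at the deposited scaling. At an unadjusted p under 0.05 by limma there were 1 and 2 members. RRM1 had the largest change in both, -0.38 ± 0.14 with p53 siRNA and -0.39 ± 0.17 with CDT1 siRNA (adjusted p = 0.0873 and 0.161 by limma). In the fit without the libraries that stand apart these changes were -0.38 ± 0.07 and -0.39 ± 0.09 (limma, adjusted p = 0.000261 and 0.00171). They stayed uncalled there because they are under 1.5-fold. The second DMSO set differed from the first by at most 0.22 (TYMS, GL2 siRNA), with 0 member calls in GL2 siRNA cells, where 0.941% of all genes were called, 0.364% higher and 0.576% lower (0.238% and 0.956% at the deposited scaling). It gave 0 in p53 siRNA cells, where 0.278% were called, 0.0809% higher and 0.197% lower (0.0556% and 0.248%). In both, 0 members had an unadjusted p under 0.05 by limma.

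Ordered over the 14 groups, all 6 genes had their highest mean in p53 siRNA cells with MLN4924. At the deposited scaling this held for RRM2, TYMS, TK1 and DTYMK, whereas RRM1 was highest in the second GL2 DMSO set and DUT in the second p53 DMSO set. RRM2, TK1, DTYMK and DUT were lowest with Nutlin in GL2 siRNA cells, and RRM1 and TYMS with daunorubicin, where they overlapped with Nutlin; RRM1 was lowest with Nutlin at the deposited scaling. From the lowest to the highest group mean, RRM2 spanned 6.72, TK1 3.79, DTYMK 2.91, RRM1 2.71, TYMS 1.88 and DUT 1.17 on the log2 scale. Of the 13 pairs of neighbours in each order, 9 (DTYMK) to 11 (TYMS and DUT) overlapped in their arrays. The spread within groups, pooled over the 14, was 0.13 (SD, log2) for DUT, 0.17 for TYMS and 0.23 to 0.25 for RRM2, RRM1 and DTYMK. For TK1 it was 0.42, with an SD of 1.49 in p53 siRNA cells with daunorubicin.

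Across the 14 group means, which share arrays of the same experiment, the members followed each other with Pearson r between 0.86 (RRM2 and DUT) and 0.97 (RRM1 and RRM2). Among 12381 other genes with signal above the median of all values, the nearest to RRM1 was MAD2L1 (r = 0.989), a spindle checkpoint protein, and the nearest to RRM2 was ZWINT (0.989), a kinetochore protein. GINS2 (0.988), of the replicative helicase, and RAD51AP1 (0.987), of recombination repair, came next for RRM2, and DSN1 (0.986) and MND1 (0.983) for RRM1. DTYMK lay nearest to USP1 (0.990), PRIM1 (0.989) and POLE2 (0.989), of which PRIM1 is the primase subunit and POLE2 a subunit of DNA polymerase epsilon. TYMS lay nearest to HMGB1 (0.987), CBX1 (0.985) and RFC2 (0.984), and TK1 to CENPH (0.984), TADA1 (0.973) and HMGB1 (0.971). DUT had SHROOM1 (0.975), DLEU2 (0.975) and SPDL1 (0.964). These correlations describe 14 points and carry no test. GL2 cells with Nutlin and with daunorubicin lay far from the other groups. RRM2 stood at -0.24 and 1.55 there, against 5.06 to 6.48 elsewhere, and RRM1 at 2.69 and 2.67, against 4.46 to 5.38. These groups therefore weigh heavily in r, which was not computed without them.

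RRM2B, the p53 target that can replace RRM2, moved opposite to RRM2 with Nutlin and daunorubicin in GL2 siRNA cells. It read 2.56, 2.70 and 2.43 in the first DMSO set, 4.23, 4.34 and 4.39 with Nutlin and 4.23, 4.12 and 4.13 with daunorubicin. The drug arrays lay above all DMSO arrays, with changes of 1.76 ± 0.18 and 1.60 ± 0.18 (limma, adjusted p = 3.2e-09 and 2.3e-08). MLN4924 raised RRM2B in GL2 siRNA cells too, to 4.17, 4.31 and 4.09 (change 1.55 ± 0.15), while RRM2 was not called. With p53 siRNA, RRM2B did not pass the test with MLN4924 (0.00 ± 0.15) or Nutlin (0.12 ± 0.18). With daunorubicin it was called higher, at 0.72 ± 0.18, on arrays at 3.57, 2.66 and 2.74, the first being the library of low 5′ to 3′ ratio. Without the libraries that stand apart the difference was 0.43 ± 0.15 and was not called. RRM2B rose with MLN4924 by 0.81 ± 0.18 in CDT1 siRNA cells. In BRCA1 siRNA cells it was called higher at 0.63 ± 0.18, and without the libraries that stand apart it read 0.53 ± 0.15, uncalled. BRCA1 siRNA alone raised it by 0.78 ± 0.15.

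**Figure D3:**
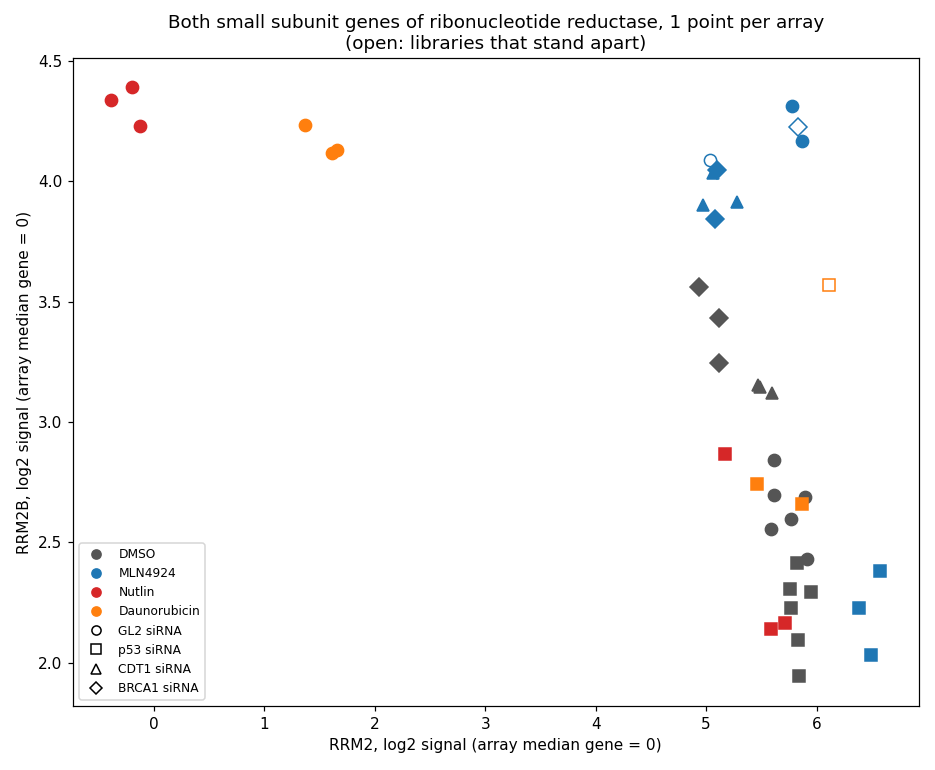
RRM2 (x axis) against RRM2B (y axis) on each of the 42 arrays, both as log2 signal relative to the median gene, with colour for the agent, shape for the siRNA and open symbols for the 3 libraries that stand apart. Nutlin and daunorubicin arrays of GL2 cells lie at low RRM2 and high RRM2B, and GL2 arrays with MLN4924 at high RRM2B with RRM2 at 5.04 to 5.87.

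Within each array, RRM2 less RRM2B, RRM2 less RRM1 and TYMS less TK1 were compared between drug and DMSO in the 8 drug comparisons, which gave 24 tests. The RRM2 less RRM2B difference dropped by 7.70 with Nutlin and by 5.76 with daunorubicin in GL2 siRNA cells, with no overlap. Here 3 arrays against 3 cannot go below an exact two-sided permutation p of 0.1. With MLN4924 it dropped by 1.73 in GL2 siRNA cells (exact permutation p = 0.0119, the smallest that 3 against 6 can give, and 0.143 after adjustment over the 24 tests). These MLN4924 arrays read 0.95 to 1.70, against 2.77 to 3.49 under DMSO. The lowest, at 0.95, is the library that goes against its label, and it has a part in this drop and its p. In p53 siRNA cells with MLN4924 the RRM2 less RRM2B difference went the other way, higher by 0.66 with no overlap and the same exact permutation p and adjusted value. RRM2 dropped relative to RRM1 by 3.61 with Nutlin and by 1.80 with daunorubicin in GL2 siRNA cells. TYMS rose relative to TK1 by 1.77 and 1.13 in the same comparisons. The arrays did not overlap in these comparisons, and 0 of the 24 tests passed after adjustment. Tests of 3 against 3 could not pass, since their exact permutation p cannot go below 0.1. Those of 3 against 6 could pass only if all of them reached their smallest p at once. The count of passes therefore does not decide whether these differences shifted.

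The members have 17 single-symbol probe sets between them, and 15 were called lower with Nutlin and 15 with daunorubicin in GL2 siRNA cells. The exceptions were the dimmest TYMS and DTYMK probe sets. Over all genes, each by its chosen probe set, 9.67% and 9.93% were called lower in these comparisons. The dim DTYMK probe set read 1.63 higher with Nutlin, uncalled, where the brightest fell by 2.06. The second RRM2 probe set fell by 6.15 with Nutlin, and the second TK1 probe set by 3.05. DUT is represented by a probe set whose name marks it as able to match other sequences (x_at), and its other probe sets fell by 1.13 and 1.68 with Nutlin, against 0.998 for the chosen one. CDT1 siRNA lowered the second RRM2 probe set by 1.15, called, where the chosen one differed by -0.21, uncalled. With MLN4924 in p53 siRNA cells 9 of the 17 were called higher, where 17.8% of all genes were. These calls are after centring, and at the deposited scaling 0 of the 6 members were called by their chosen probe sets. BRCA1 siRNA lowered 9 of the 17, among them the second TK1 probe set at -0.89, where 4.37% of all genes were called lower.

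The rest of nucleotide metabolism moved less than the 6 genes with Nutlin in GL2 siRNA cells, by their medians. Of all genes, 6.71% were called higher and 9.67% lower there. Folate cycle genes, which supply the methyl group for TYMS, had a median change of -0.62, with 0 higher and 5 lower of 9 measured. GGH, which trims folate polyglutamates, fell by 2.26 ± 0.18, and MTHFD1 and MTHFD2, folate interconversion enzymes, by 1.11 ± 0.14 and 0.89 ± 0.15. Purine synthesis had 2 higher and 6 lower of 14 measured (median -0.46), led by PRPS2 at -1.44 ± 0.14, GMPS at -1.25 ± 0.16 and PAICS at -0.97 ± 0.13. Pyrimidine synthesis had 0 higher and 2 lower of 6: CTPS1, the CTP synthase, at -1.11 ± 0.17 and UMPS, which makes UMP, at -0.67 ± 0.15.

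Deoxynucleoside salvage with Nutlin was mixed, with 2 higher and 3 lower of 11 measured (median -0.03), where 6.71% of all genes were called higher and 9.67% lower. DCK, deoxycytidine kinase, fell by 1.96 ± 0.25 and UPP1, uridine phosphorylase, by 2.04 ± 0.24, while PNP, purine nucleoside phosphorylase, rose by 0.75 ± 0.12. Pool turnover had 0 higher and 2 lower of 9, DCTPP1 (-0.69 ± 0.17) and NUDT1, which removes oxidised dGTP and whose signal with Nutlin, 26.5, lay under the median of all values. The mono- and diphosphate kinases had 1 higher, AK1 (1.23 ± 0.11), and 1 lower, CMPK2 (-1.14 ± 0.20), of 10. The cell cycle list had 2 higher and 11 lower of 16, with the cyclins CCNB1 and CCNA2 at -4.51 ± 0.16 and -4.84 ± 0.23. CCNE2 was called lower too, but its signal with Nutlin, 18.2, lay under the median of all values, so no size is given. Fewer cells in S phase and less RNA per cell cannot be told apart in bulk arrays.

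Daunorubicin in GL2 siRNA cells gave 0 higher and 5 lower of 9 folate genes and 1 and 7 of 14 purine genes. Pyrimidine genes had 0 and 3 of 6 and salvage genes 0 and 3 of 11, where 6.49% of all genes were called higher and 9.93% lower. DCK fell by 2.34 ± 0.25, CTPS1 by 1.61 ± 0.17, PRPS2 by 1.61 ± 0.14 and GGH by 1.52 ± 0.18. With Nutlin in p53 siRNA cells, 0 genes of the 7 metabolic lists were called by limma, where 0.0556% of all genes were, and CDKN1A, at 1.87 ± 0.17, was called in the cell cycle list. Without the libraries that stand apart, 1 listed metabolic gene was called, SLC29A1, a nucleoside transporter, at -0.80 ± 0.21 (limma, adjusted p = 0.0472), named after its value was seen.

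With MLN4924 in p53 siRNA cells more of the listed genes were higher than lower: 9 higher and 1 lower of 14 purine genes, 4 and 0 of 6 pyrimidine genes and 3 and 0 of 9 folate genes, where 17.8% of all genes were called higher and 7.60% lower. Kinases had 4 and 1 of 10 and the cell cycle list 9 and 1 of 16. At the deposited scaling, where 5.33% of all genes were higher and 17.4% lower, the purine, pyrimidine and folate counts were 4 and 1, 2 and 1, and 2 and 0. Kinases then had 2 and 2, and the cell cycle list 2 higher and 4 lower. PRPS1, PFAS and HPRT1, purine enzymes, rose by 1.12 ± 0.13, 1.27 ± 0.15 and 0.99 ± 0.12. DHODH, which oxidises dihydroorotate, rose by 1.05 ± 0.09, and SHMT2 and MTHFD2, mitochondrial folate enzymes, by 1.17 ± 0.11 and 1.21 ± 0.13. TK2, the mitochondrial thymidine kinase, was called lower, to a signal of 19.9, under the median of all values. In GL2 siRNA cells MLN4924 raised 4 of 6 genes of the list of RRM2B and reductants, where 10.2% of all genes were called higher. Among the 4 were TXNRD1 (1.28 ± 0.12) and GSR (1.02 ± 0.14), which keep thioredoxin and glutathione reduced. TK2 fell there by 1.23 ± 0.12.

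**Figure D4:**
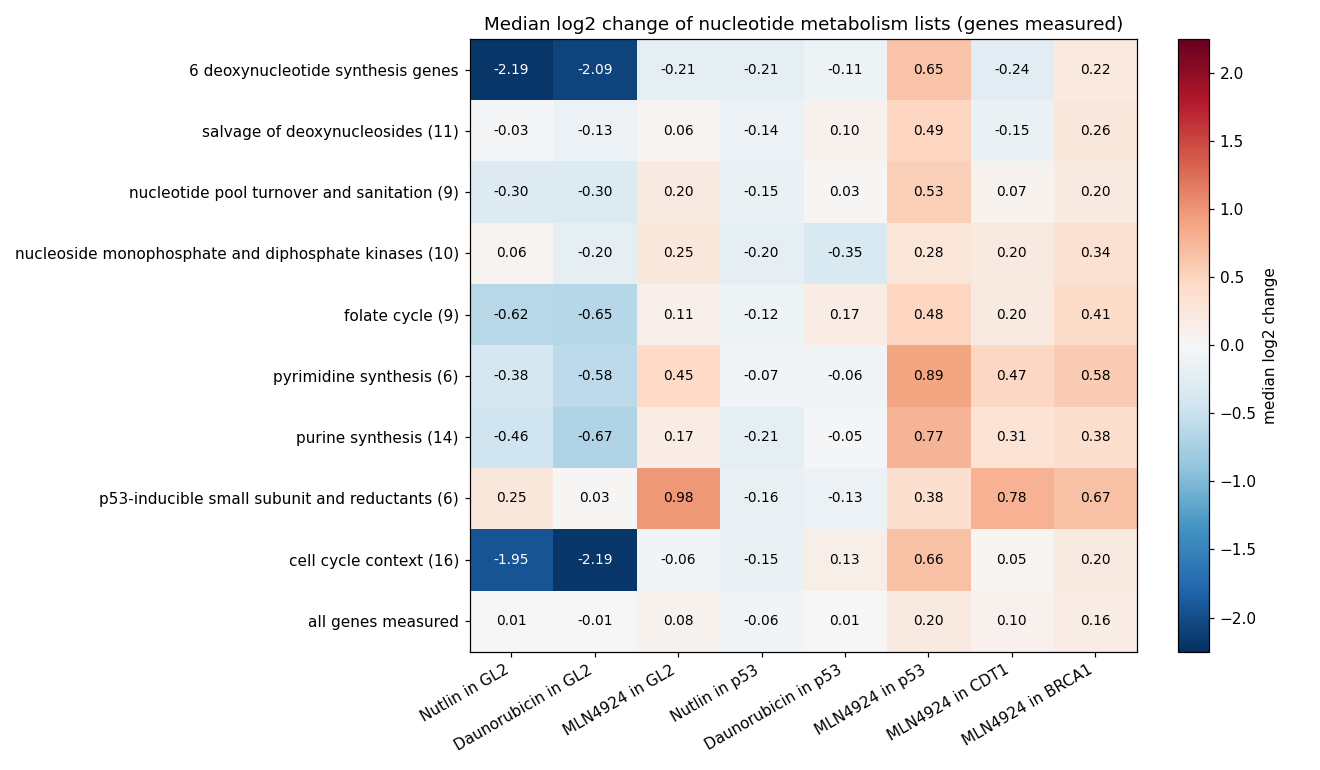
Median log2 change (colour and number in each cell) of the 6 genes, of 8 lists with the number of genes measured in brackets, and of all 19775 genes (rows) in the 8 drug comparisons (columns). The 6 genes stand at -2.19 and -2.09 with Nutlin and daunorubicin in GL2 cells, near the cell cycle list and below the other lists.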

How the data were processed

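RNA of A375 cells was measured on 42 Affymetrix arrays. The deposited table holds a linear signal intensity for 54675 probe sets per array, made by the authors with Expression Console according to the submitters' processing notes. Each array has a 2% trimmed mean of 149.98, and the number of arrays, 3 per group, limits the precision.

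Values of 0 (147) were raised to 0.1, log2 was taken, each of 19775 genes was given its single-symbol probe set of highest mean, and the median gene of each array was set to 0. Probe sets were named from the platform annotation: 41097 had 1 symbol, 1801 several, 11715 none and 62 were controls. Of these, 41043 had an Entrez identifier found in the RefSeq gene table.

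limma 3.58.1 in R 4.3.3 fitted all 14 groups in 1 model (28 residual degrees of freedom) with 22 contrasts. Genes were called at Benjamini-Hochberg adjusted p under 0.05 and 1.5-fold. Nutlin and daunorubicin were compared with the first DMSO set, MLN4924 and the siRNAs with both sets of GL2 or p53, and MLN4924 in CDT1 and BRCA1 siRNA cells with their own DMSO. The labels do not tie a set to a treatment. By 12 genes that differ between the sets, Nutlin and daunorubicin arrays lay near the first (-0.51 to 0.37, where 0 is the first and 1 the second). The array at -0.51 is the daunorubicin library of low 5′ to 3′ ratio. BRCA1 siRNA DMSO arrays, at 1.05 to 1.15, lay within the range of the second set's own arrays, 0.90 to 1.28. MLN4924 arrays with CDT1 or BRCA1 siRNA lay at 0.22 to 0.72. The array at 0.72 is the BRCA1 siRNA library that goes against its label, and the others lay at 0.22 to 0.36, within the range of the Nutlin and daunorubicin arrays. This scale therefore does not set Nutlin and daunorubicin arrays apart from them. Replicate numbers did not pair arrays: in 0 of 91 pairs of groups did same-numbered arrays all correlate over 0.1. The fit was tested on simulated data, where it missed most genes set to change by 1.5-fold. An uncalled gene can therefore hold a change of that size. No pair of arrays held identical values.

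Named genes were the 6 members, RRM2B, siRNA and drug checks, up to 3 called genes per list and drug comparison by moderated t, and the 3 genes most like each member. The members, lists and control sets were chosen with earlier results of these data known. Alternatives covered scaling, control sets, probe sets, pseudocount, filter, variance model, array weights, thresholds, a replicate block and left-out libraries.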

Additional observations from a re-analysis of the deposited data

Results flagged for a closer look

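The response to a drug differed between p53 and GL2 siRNA cells by the test of the difference itself (limma, log2 difference of the changes, p53 less GL2, with adjusted p). For Nutlin the difference was 2.32 for RRM1 (4.13e-07), 5.61 for RRM2 (1.41e-15), 0.90 for TYMS (0.00297), 2.86 for TK1 (6.58e-05), 1.89 for DTYMK (1.85e-05) and 0.75 for DUT (0.00141). For daunorubicin it was 2.45 for RRM1 (1.54e-07), 4.15 for RRM2 (3.25e-12), 0.96 for TYMS (0.00119), 1.43 for TK1 (0.0372) and 1.90 for DTYMK (1.44e-05). For MLN4924 it was 0.93 for RRM1 (0.011), 0.83 for RRM2 (0.0161), 0.61 for TYMS (0.0211) and 1.0 for DTYMK (0.00724). The TK1 difference with daunorubicin lost its call in 10 of the 12 fits that left out 1 array, with values of 0.91 to 1.45. It was called at 2.28 without p53 siRNA daunorubicin replicate 1. The 4 differences with MLN4924 were not called without GL2 siRNA MLN4924 replicate 3.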

How the results depend on the processing

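The 6 lower calls with Nutlin and the 6 with daunorubicin in GL2 siRNA cells stayed at 5 or 6 under all alternatives run. Of 533 counts of members recomputed, 500 stayed within 1.5 times of the reported count and 33 did not. The 500 include counts of 0 that stayed at 0, and many of the fits left out only 1 library, so this share is not a measure of how firm the calls are. With MLN4924 in p53 siRNA cells the 4 calls became 0 at the deposited scaling, 0 with quantile normalization, 1 with a pseudocount of 16 and 0 at 2-fold. With MLN4924 in GL2 siRNA cells 0 became 1 with quantile normalization. With daunorubicin in p53 siRNA cells the 1 call became 0 at the deposited scaling, with quantile normalization, with the mean of all probe sets, with only the groups compared, with array weights, at an adjusted p under 0.01, at 2-fold, with the replicate block and without the libraries that stand apart, and ran from 0 to 1 when 1 array was left out. With CDT1 siRNA 0 became 1 with the mean of all probe sets, and with BRCA1 siRNA 3 became 0 at 2-fold. For the MLN4924 change in p53 less GL2 siRNA cells, 4 became 2 with quantile normalization, 1 with the first DMSO set alone, 1 at an adjusted p under 0.01, 1 at 2-fold, and 0 to 5 when 1 array was left out. For Nutlin less daunorubicin, 1 became 2 with array weights. For the MLN4924 less daunorubicin change in p53 siRNA cells, 3 became 1 at the deposited scaling, with quantile normalization and at 2-fold, 5 with array weights and without the libraries that stand apart, and 2 to 5 when 1 array was left out; RRM2 reversed there to -0.0153 with quantile normalization. The replicate block changed no other count of members. Over all genes, Nutlin in p53 siRNA cells gave 11 calls, 742 against the second DMSO set, 228 against both, 181 with array weights and 87 without the libraries that stand apart, and daunorubicin in p53 siRNA cells gave 2378, and 51 with only the groups compared. Counted with these, 77 gene counts moved by over 1.5 times. The cause of these shifts was not tested.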
